A study of Mus musculus with 42 samples.

Results

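The genes of cholesterol and fatty acid synthesis were followed through 12 groups of cultured mouse synovial fibroblasts (these connective tissue cells line the joint). The set holds 32 genes named by symbol, and 31 of them had at least 1 probe set naming that gene alone, 72 probe sets of the 45101 on the array. Acat2, the cytosolic enzyme that joins acetyl-CoA units, had no such probe set and was not analysed here. By role the measured genes comprise 17 enzymes of cholesterol synthesis, 5 genes of sterol sensing, 5 of sterol transport and efflux and 4 of fatty acid synthesis. All cells came from female BALB/c mice with arthritis, immunised with cartilage proteoglycan in the adjuvant DDA. The mice were labelled as TSG-6 knockout, deficient in Tnfaip6 (27 arrays, here KO-labelled), or as wild-type (15 arrays, WT). TSG-6 is a secreted protein that binds hyaluronan (HA). Each array measured 1 culture that had been passaged up to 6 times, kept overnight in 0.5% serum and then treated for 12 h or left untreated. The KO-labelled arrays comprised 4 cultures with TNFa at 5 ng/ml, 4 with lipopolysaccharide (LPS) at 200 ng/ml, 3 with recombinant mouse TSG-6 at 120 ug/ml, 4 with HA at 24 ug/ml, 4 with TSG-6 and HA together at those doses (TSG6+HA) and 8 left untreated. The WT arrays comprised 2 cultures for each of those 5 treatments and 5 untreated. The labels do not say how many animals the cultures came from, so p-values measure the spread between these cultures only.

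Cells make cholesterol from acetyl-CoA through mevalonate, farnesyl diphosphate and squalene, and the ring-closed product lanosterol is then trimmed and reduced to cholesterol. When membrane sterol runs low, the escort protein Scap carries the precursor of SREBP-2 (gene Srebf2) from the endoplasmic reticulum to the Golgi, where its active fragment is cut free to switch on nearly every enzyme of the pathway, and the Insig proteins hold this step back when sterol is plentiful. SREBP-1 (Srebf1) acts in the same way with a stronger bias to fatty acid synthesis, while surplus sterol leaves the cell through the transporters Abca1 and Abcg1.

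Promoters were read to show where 3 enzymes that were higher in KO-labelled cultures after TNFa, TSG-6 and TSG6+HA carry the motifs known from sterol-regulated genes, beside Abca1, which passed the test of expression after none of the treatments. The sequences are the 250 bases before a start site given by RefSeq on GRCm38.p6, written 5′ to 3′ on the gene's own strand. Capitals mark a match on either strand to the sterol regulatory element TCACNCCAC, the CCAAT box, the GC box GGGCGG or the E-box CACGTG.
Hmgcs1: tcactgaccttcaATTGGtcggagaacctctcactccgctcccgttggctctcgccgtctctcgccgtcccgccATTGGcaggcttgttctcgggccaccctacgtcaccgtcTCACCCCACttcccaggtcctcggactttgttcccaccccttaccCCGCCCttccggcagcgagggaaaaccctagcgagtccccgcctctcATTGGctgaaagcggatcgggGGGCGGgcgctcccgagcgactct
Cyp51: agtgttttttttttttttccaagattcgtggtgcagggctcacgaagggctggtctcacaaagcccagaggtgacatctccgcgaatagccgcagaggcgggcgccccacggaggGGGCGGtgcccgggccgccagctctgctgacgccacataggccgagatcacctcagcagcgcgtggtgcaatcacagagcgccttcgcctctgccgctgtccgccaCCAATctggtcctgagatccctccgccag
Hsd17b7: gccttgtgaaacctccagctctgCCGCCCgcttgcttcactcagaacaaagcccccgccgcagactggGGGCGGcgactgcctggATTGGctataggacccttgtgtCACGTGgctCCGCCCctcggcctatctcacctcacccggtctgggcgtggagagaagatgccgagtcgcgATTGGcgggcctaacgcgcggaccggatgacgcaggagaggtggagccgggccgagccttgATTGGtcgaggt
Abca1: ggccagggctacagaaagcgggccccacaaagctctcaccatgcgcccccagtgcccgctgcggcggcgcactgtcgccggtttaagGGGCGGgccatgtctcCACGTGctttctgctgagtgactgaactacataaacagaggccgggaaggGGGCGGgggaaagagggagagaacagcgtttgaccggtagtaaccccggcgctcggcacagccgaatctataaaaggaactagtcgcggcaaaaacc
They lie at chr13:119690101-119690350 on the plus strand and, on the minus strand, at chr5:4104698-4104947, chr1:169969206-169969455 and chr4:53159896-53160145. The RefSeq spans of Hsd17b7 and Abca1 reach past the start used, to 169969242 and 53159988, so these 2 sequences lie partly inside the gene. No capitals overlap between motifs. The Hmgcs1 sequence has the sterol regulatory element as TCACCCCAC, 137 to 129 bases before the start, with 3 CCAAT boxes and 2 GC boxes. ATTGG is CCAAT and CCGCCC is GGGCGG read from the opposite strand. Among 31 RefSeq promoters that belong to 23 of the measured genes, Hmgcs1 alone matched TCACNCCAC, and 1.05% of 32851 promoters of the same length did. CCAAT occurred in 21 of the 31, 67.7%, and in 33.8% of all promoters. GGGCGG occurred in 24 of the 31, 77.4%, and in 32.7% of all. CACGTG occurred in 6 of the 31, 19.4%, and in 6.02% of all, and both Hsd17b7 and Abca1 carry it. These matches describe letters, not bound sites. The sterol regulatory element was searched in the form TCACNCCAC only, so promoters without a match are not shown to lack one.

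Expression values are log2 RMA values from which each probe set's median over the 42 arrays was taken, so a value of 0 is that probe set's middle level and levels cannot be compared between genes. The p-values are from limma on 18194 genes, adjusted by Benjamini-Hochberg within a comparison, and "rose", "fell", "higher" and "lower" are kept for an adjusted p below 0.05. Values after ± are standard errors. The probe set of Tnfaip6 did not separate the genotypes, at -0.41 to 0.25 in untreated KO-labelled and -0.55 to -0.14 in untreated WT cultures (difference 0.26 ± 0.16 SE, limma adjusted p = 0.22), and its place with respect to the deleted part of the gene was not known here. Genotype is therefore used as labelled. The arrays of each genotype divide into culture sets a and b that the labels do not name. They hold 14 and 13 KO-labelled and 8 and 7 WT arrays, and set a of one genotype has no known tie to set a of the other. The split is less marked in KO-labelled arrays. Of the probe sets with a gap of over 1 log2 unit, 12 of 73 gave it there, against 33 of 43 in WT arrays. On 15 arrays (10 KO-labelled, 5 WT) the 18S ribosomal RNA probe set exceeded 1, and these include KO-labelled untreated 7 and 8. The 5 WT arrays are all of set b, as are KO-labelled untreated 7 and 8. KO-labelled untreated 7 and 8 held the lowest value of their group for 14 and 7 of the 31 genes. KO-labelled untreated 6, without high 18S signal, held it for 7 as well.

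Untreated KO-labelled cultures had lower expression of nearly the whole pathway than untreated WT cultures. Of the 31 genes, 25 were lower and 4 higher, and the median difference was -1.08 against 0.0265 over all genes, of which 37.6% passed the test with 16.3% lower and 21.3% higher. All 17 enzymes of cholesterol synthesis had negative differences and 16 passed the test, with a median of -1.10. Fatty acid synthesis was lower in all 4 of its genes.

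**Figure D1:**
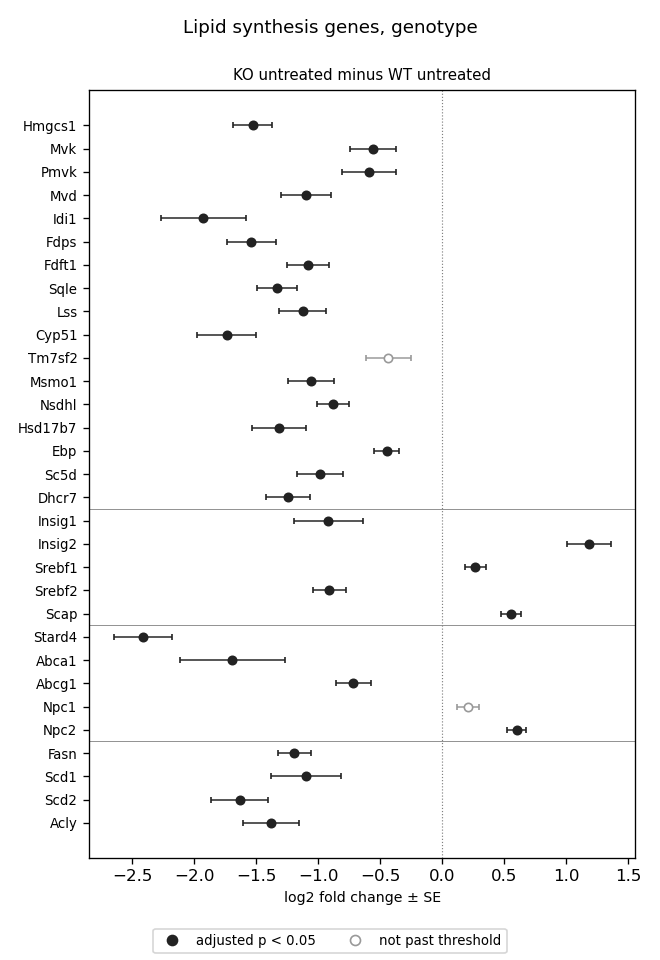
Difference between untreated KO-labelled (n = 8) and untreated WT (n = 5) cultures for the 31 genes on the log2 scale, with bars of 1 SE and filled points for an adjusted limma p below 0.05 and grey lines between synthesis enzymes, sterol sensing, transport and efflux, and fatty acid synthesis. Stard4 lies farthest left at -2.41 and Insig2 farthest right at 1.18.

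Among the enzymes, Hmgcs1, which makes HMG-CoA at the head of the pathway, ranged from -1.43 to -0.50 (median -0.83) in untreated KO-labelled cultures, against 0.31, 0.48, 0.37, 1.11 and 1.01 in untreated WT cultures. The groups do not overlap, and the difference was -1.53 ± 0.16 (SE, adjusted p = 3.94e-10), 2.89-fold lower. Cyp51, the demethylase that starts the trimming of lanosterol, ranged from -1.80 to -0.53 (median -1.17) in untreated KO-labelled cultures, against -0.0064, 0.092, -0.062, 1.19 and 1.23 in untreated WT cultures. All 8 KO-labelled values again lie below the 5 WT values, which form a lower group of 3 and a higher group of 2, and the difference was -1.74 ± 0.24 (SE, adjusted p = 1.48e-07). Idi1, which isomerises isopentenyl diphosphate, had a difference of -1.93 ± 0.35 (SE, adjusted p = 1.98e-05). Fdps, which makes farnesyl diphosphate, ranged from -1.37 to -0.45 (median -0.94) in KO-labelled cultures, against 0.13, 0.35, 0.26, 1.16 and 1.19 in WT cultures. It was 2.91-fold lower with no overlap, at a difference of -1.54 ± 0.20 (SE, adjusted p = 5.88e-08).

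Squalene epoxidase, Sqle, ranged from -1.35 to -0.56 (median -0.97) in untreated KO-labelled cultures, against 0.12, 0.11, 0.17, 0.86 and 0.79 in untreated WT cultures, and differed by -1.33 ± 0.16 (SE, adjusted p = 1.60e-08). Its groups do not overlap either. Msmo1, the methylsterol oxidase, ranged from -1.22 to -0.22 (median -0.81) in KO-labelled cultures, against -0.19, 0.056, -0.014, 0.85 and 0.84 in WT cultures. Here the lowest WT value lies just above the highest KO-labelled one, and the difference was -1.06 ± 0.19. Nsdhl, the decarboxylating sterol dehydrogenase, ranged from -0.80 to -0.14 (median -0.54) in KO-labelled cultures, against 0.14, 0.23, 0.16, 0.71 and 0.66 in WT cultures, a difference of -0.88 ± 0.13 with no overlap. Hsd17b7, the reductase that follows it, ranged from -1.74 to 0.10 (median -0.88) in KO-labelled cultures, against -0.085, 0.42, 0.13, 0.70 and 0.53 in WT cultures. KO-labelled untreated 2, the highest of its group, lies above WT untreated 1, and the difference was -1.32 ± 0.22.

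The other enzymes were lower too. The differences were -1.25 for Dhcr7, the reductase that makes cholesterol itself, -1.13 for lanosterol synthase Lss, -1.10 for mevalonate diphosphate decarboxylase Mvd, -1.08 for squalene synthase Fdft1 and -0.98 for the sterol desaturase Sc5d. They were smallest for the kinases Pmvk (-0.59, though 0.036 after cyclic loess between arrays) and Mvk (-0.56) and the isomerase Ebp (-0.45). The sterol reductase Tm7sf2 had -0.43 ± 0.18 and missed the threshold (adjusted p = 0.0541).

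The sterol sensing genes divided. Srebf2 ranged from -1.10 to 0.03 (median -0.63) in untreated KO-labelled cultures, against 0.31, 0.17, 0.33, 0.33 and 0.46 in untreated WT cultures. It was lower by 0.91 ± 0.13 with no overlap between the groups, and Insig1, a feedback brake that SREBP itself switches on, was lower by 0.92 ± 0.28. Insig2, the brake that does not depend on SREBP in this way, ranged from -0.014 to 0.65 (median 0.27) in KO-labelled cultures, against -1.17, -0.97, -1.03, -0.55 and -0.62 in WT cultures. Every KO-labelled value lies above every WT value, and the difference was 1.18 ± 0.18 (SE, adjusted p = 8.61e-07), the largest of the 4 genes that were higher. Scap was higher by 0.55 ± 0.078 and Srebf1 by 0.27 ± 0.087.

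Among the transport genes, Stard4, a soluble carrier of cholesterol between membranes, ranged from -2.34 to -0.24 (median -0.97) in untreated KO-labelled cultures, against 0.83, 1.40, 1.18, 1.55 and 1.49 in untreated WT cultures. The groups lie more than 1 log2 unit apart at their nearest values. The difference of -2.41 ± 0.23 (SE, adjusted p = 1.03e-10), 5.33-fold lower, was the largest of the 31. The efflux transporter Abca1, which loads cholesterol onto apolipoprotein A-I, ranged from -1.51 to 0.87 (median -0.08) in KO-labelled cultures, against 1.50, 2.46, 2.05, 0.74 and 0.60 in WT cultures. WT untreated 1, 2 and 3 stand above the other WT and all KO-labelled values, and the groups overlap. The difference was -1.69 ± 0.42 (SE, adjusted p = 0.00127). The partner transporter Abcg1 was lower by 0.72 ± 0.14. Of the pair that exports cholesterol from lysosomes, Npc2 was higher by 0.60 ± 0.076, and Npc1 had 0.21 ± 0.088 (adjusted p = 0.0600).

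In fatty acid synthesis, Scd2, a stearoyl-CoA desaturase, ranged from -2.37 to 0.045 (median -1.14) in untreated KO-labelled cultures, against 0.29, 0.52, 0.50, 0.40 and 0.61 in untreated WT cultures. KO-labelled untreated 2 is the nearest of the 8 to the WT values, and the difference was -1.63 ± 0.23 (SE, adjusted p = 2.21e-07). Its relative Scd1 was lower by 1.10 ± 0.28, Acly, which supplies the acetyl-CoA of the cytosol, by 1.38 ± 0.23, and fatty acid synthase Fasn by 1.19 ± 0.13.

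Markers of other cells and of cell division moved with this difference. Of 10 endothelial markers, 9 were lower in untreated KO-labelled cultures (Vwf missed the threshold), and their median per array was -0.87 to 0.25, against 3.71 to 3.94 in untreated WT cultures. All 11 proliferation markers were lower, with medians of -0.84 to 0.12 in KO-labelled and 1.69 to 2.31 in WT cultures. Of 11 fibroblast markers 8 passed the test, and Prg4, Lum, Pdgfra and Dcn were higher and Thy1, Col1a1, Col1a2 and Col3a1 lower. The medians of the fibroblast list (-0.23 to 0.15 in KO-labelled, -0.40 to 0.13 in WT cultures) and of the macrophage list (-0.22 to 0.029 in KO-labelled, -0.13 to -0.011 in WT cultures) overlap, though 2 of 11 macrophage markers, Cd14 (-1.28) and Lyz2 (-1.58), were lower. The adipocyte list, with medians of -0.16 to 0.26 in KO-labelled and 0.19 to 0.37 in WT cultures, had 1 gene higher and 1 lower of 6. The actin 3′ minus 5′ value, a sign of RNA integrity, was 0.009 to 0.73 (median 0.093) in untreated KO-labelled cultures, against 0.16, -0.06, -0.11, -0.15 and -0.11 in untreated WT cultures, so that all but WT untreated 1 lie below the KO-labelled arrays. The part of these cells, of division and of RNA integrity in the lipid gene difference was not tested, and in such bulk cultures fewer cells of a type and less RNA per cell cannot be told apart.

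The size of the genotype difference depended on the WT culture set. With the 3 untreated WT arrays of set a alone, 25 of the 31 genes passed the test (22 lower) with a median of -0.77. With the 2 of set b alone 27 did (24 lower) with a median of -1.35. Over all genes 5859 passed with set a alone and 5891 with set b alone, against 6832 with both. The median over the 17 enzymes was 0.10 to 0.14 in set a and 0.98 to 0.99 in set b of the untreated WT cultures. Over all 15 WT arrays genes differed in whether the sets overlap. Mvd lay at 0.012 to 0.42 in set a and 0.99 to 1.34 in set b, Fdps at 0.13 to 0.58 and 1.03 to 1.31, and Scd1 at -0.30 to 0.65 and 0.75 to 1.52. Abca1 ran the other way, with 1.50 to 2.46 in set a and -0.81 to 0.77 in set b. Hsd17b7 overlapped, at -0.085 to 1.10 in set a and 0.53 to 1.26 in set b, as did Stard4, Scd2, Insig2, Srebf1, Srebf2, Scap, Fasn, Acly, Abcg1, Npc1 and Npc2. Among untreated KO-labelled cultures, whose sets have no known tie to those of WT, the enzyme median was -0.59 to -0.34 in set a and -0.98 to -0.72 in set b. The sets were read from these same data, so their differences are a description. Pmvk had -0.13 against set a and -1.28 against set b, and Mvk -0.20 and -1.11. Both missed the threshold against set a, as did Scd1 and Srebf1, and Abca1 (-0.89), Abcg1 (-0.35) and Srebf1 missed it against set b. Cyclic loess between arrays left 24 calls and ended those of Abca1, Abcg1, Insig1, Mvk and Pmvk, while 5452 of all genes passed. Leaving out single arrays ended the calls of Insig1, Mvk and Pmvk. Without the arrays of high 18S signal 27 genes passed, 22 of them lower, with a median of -0.81, and the calls of Mvk, Pmvk and Scd1 ended. Over all genes 6324 then passed. The WT arrays left out are all of set b, so this fit cannot tell 18S signal from WT culture set. Of 41 other probe sets of the called genes 38 had the same direction, and the remaining 3, of Fdps (0.060), Acly (0.0014) and Npc2 (-0.042), missed the threshold.

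**Figure D2:**
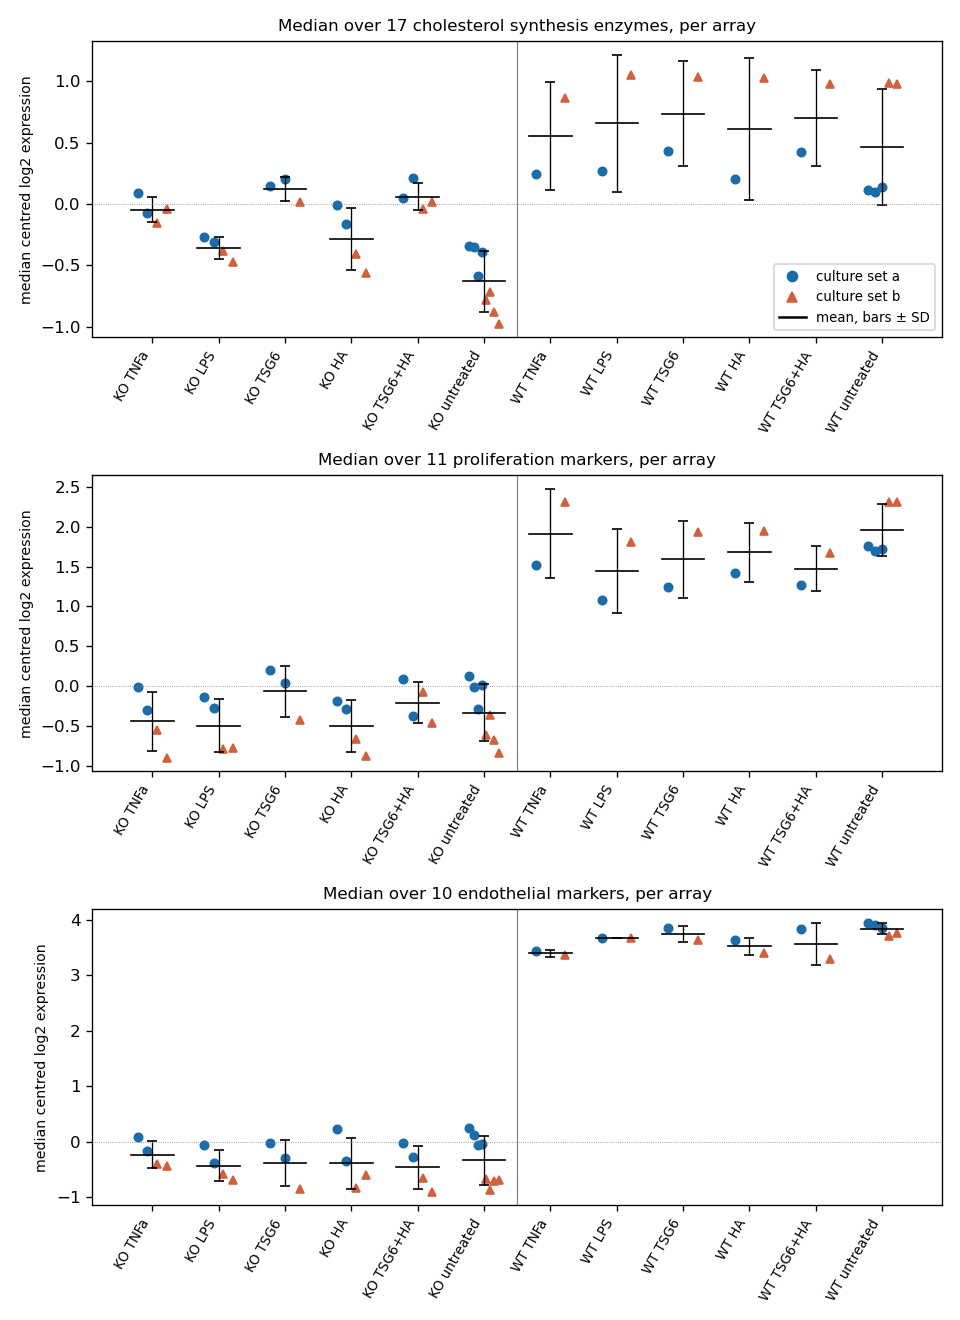
Median centred log2 expression per array over the 17 cholesterol synthesis enzymes (top), 11 proliferation markers (middle) and 10 endothelial markers (bottom) in the 12 groups, with circles for culture set a, triangles for set b, and lines and bars for mean and SD. The enzymes reach their lowest values in untreated KO-labelled cultures, at -0.98 to -0.34, and in WT cultures set b lies above set a, while the endothelial medians part the genotypes in every group.

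In KO-labelled cultures TNFa, TSG-6 and TSG6+HA were each followed by higher expression of part of the pathway, and no gene of the set fell. After TNFa 11 of 31 genes rose, with a median change of 0.40 against 0.00842 over all genes, of which 14% passed the test, 6.71% higher and 7.32% lower. After TSG-6 12 rose, with a median of 0.59 against -0.00481, where 4.75% of genes passed, 2.1% higher and 2.65% lower. After TSG6+HA 15 rose, with a median of 0.54 against 0.0106, where 9.94% passed, 3.33% higher and 6.61% lower. The synthesis enzymes supplied 9, 10 and 11 of these calls. The 3 comparisons share the 8 untreated KO-labelled arrays, so their calls are not independent. The comparison of untreated genotypes uses those arrays as well.

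**Figure D3:**
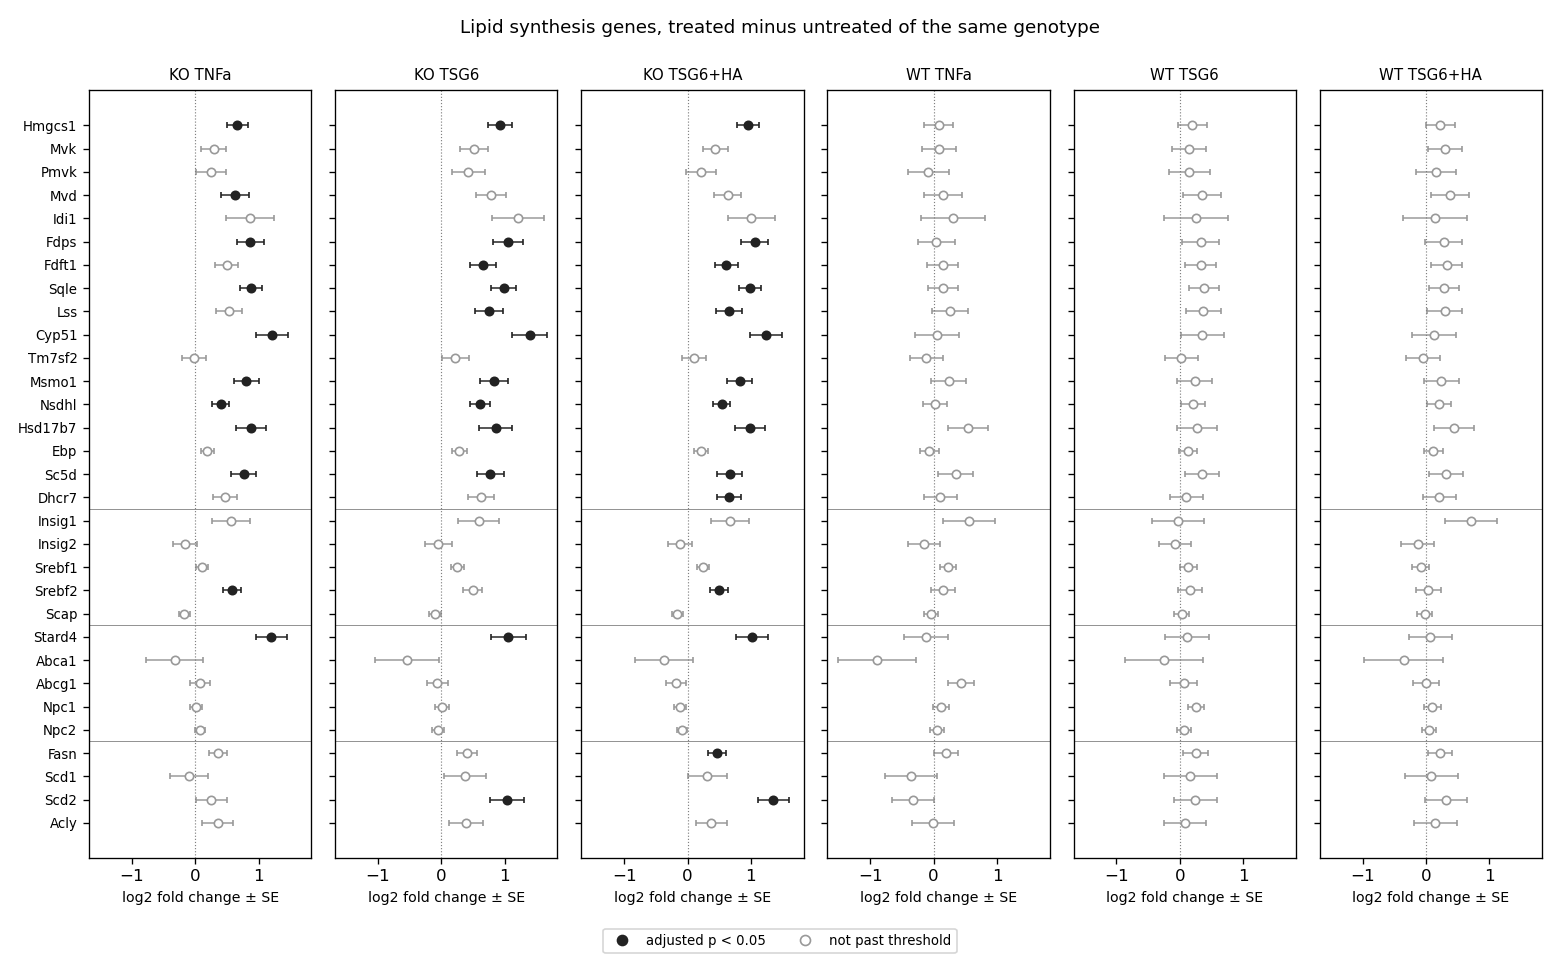
Change after TNFa, TSG-6 and TSG6+HA, each against untreated cultures of the same genotype, in KO-labelled (left 3 panels) and WT cultures (right 3 panels), on the log2 scale with bars of 1 SE and filled points for an adjusted limma p below 0.05. The KO-labelled panels hold 11, 12 and 15 filled points, all right of 0, and the WT panels hold 0.

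Sqle, the epoxidase that commits squalene to sterols, had the smallest adjusted p of the set after each of these treatments. It lay at 0.12, -0.083, -0.033 and -0.15 after TNFa, 0.10, 0.21 and -0.14 after TSG-6 and 0.048, 0.33, 0.017 and -0.13 after TSG6+HA, against -1.35 to -0.56 in untreated KO-labelled cultures. Every treated array lies above every untreated one, and the changes were 0.89 ± 0.17, 0.98 ± 0.19 and 0.99 ± 0.17 (SE, limma adjusted p = 0.000304, 0.00123 and 0.00015). Cyp51 lay at 0.0064, -0.085, -0.41 and 0.32 after TNFa, 0.28, 0.013 and 0.13 after TSG-6 and 0.011, 0.056, -0.18 and 0.074 after TSG6+HA, against -1.80 to -0.53 in untreated KO-labelled cultures. It too separates from the untreated arrays after all 3 treatments, with changes of 1.21 ± 0.25, 1.39 ± 0.28 and 1.24 ± 0.25 (adjusted p = 0.000688, 0.00167 and 0.000927), the largest among the enzymes called. Fdps lay at 0.23, -0.06, -0.15 and -0.24 after TNFa, 0.27, 0.30 and -0.18 after TSG-6 and 0.27, 0.32, 0.06 and -0.10 after TSG6+HA, against -1.37 to -0.45 in untreated KO-labelled cultures. The treated arrays are all above the untreated ones, with changes of 0.87 ± 0.21, 1.05 ± 0.24 and 1.06 ± 0.21.

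Hmgcs1 lay at -0.091, -0.18, -0.46 and -0.089 after TNFa, 0.17, 0.01 and -0.01 after TSG-6 and 0.05, 0.077, 0.10 and 0.10 after TSG6+HA, against -1.43 to -0.50 in untreated KO-labelled cultures. All treated values exceed the untreated ones, the 4 TSG6+HA cultures lie within 0.1 of each other, and the changes were 0.66 ± 0.17, 0.93 ± 0.19 and 0.95 ± 0.17 (adjusted p = 0.00514, 0.00165 and 0.000171). Msmo1 lay at 0.13, 0.12, -0.057 and 0.043 after TNFa, 0.25, 0.06 and -0.052 after TSG-6 and 0.14, 0.35, -0.12 and -0.069 after TSG6+HA, against -1.22 to -0.22 in untreated KO-labelled cultures. No treated value falls into the untreated range, and the changes were 0.81 ± 0.20, 0.83 ± 0.22 and 0.82 ± 0.20. Nsdhl lay at 0.075, -0.092, -0.17 and -0.23 after TNFa, 0.09, 0.22 and 0.0051 after TSG-6 and 0.051, 0.16, -0.062 and -0.0051 after TSG6+HA, against -0.80 to -0.14 in untreated KO-labelled cultures. Its ranges overlap after TNFa and not after TSG-6 or TSG6+HA, and the changes were 0.40 ± 0.14, 0.61 ± 0.15 and 0.54 ± 0.14 (adjusted p = 0.048, 0.0132 and 0.00843). Hsd17b7 lay at 0.34, -0.0099, -0.32 and -0.38 after TNFa, 0.28, 0.044 and -0.68 after TSG-6 and 0.24, -0.074, 0.13 and -0.25 after TSG6+HA, against -1.74 to 0.10 in untreated KO-labelled cultures. KO-labelled untreated 2, at 0.10, lies among the treated values in each comparison, and the changes were 0.88 ± 0.23, 0.86 ± 0.26 and 0.99 ± 0.23.

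Of the other enzymes, Sc5d rose after all 3 treatments (0.77 ± 0.20, 0.77 ± 0.22 and 0.67 ± 0.20). Its other probe sets had smaller changes of 0.17 to 0.45 and missed the threshold each time. Fdft1 (0.66 ± 0.20 and 0.61 ± 0.18) and Lss (0.76 ± 0.23 and 0.65 ± 0.20) rose after TSG-6 and TSG6+HA, and after TNFa they had 0.50 and 0.54 without passing the test. Mvd rose after TNFa (0.63 ± 0.22, adjusted p = 0.0498) and had similar values of 0.79 after TSG-6 and 0.63 after TSG6+HA that missed the threshold. Dhcr7 rose after TSG6+HA (0.66 ± 0.19). Idi1 had large but scattered changes of 0.86 ± 0.37, 1.21 ± 0.41 and 1.01 ± 0.37 and passed after none. Ebp, Mvk, Pmvk and Tm7sf2 also passed after none, with changes between -0.016 for Tm7sf2 after TNFa and 0.51 for Mvk after TSG-6.

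Among the sterol sensing genes, Srebf2 lay at 0.17, 0.031, -0.13 and -0.13 after TNFa, -0.046, -0.03 and -0.22 after TSG-6 and 0.071, -0.16, 0.054 and -0.32 after TSG6+HA, against -1.10 to 0.03 in untreated KO-labelled cultures. KO-labelled untreated 3, the highest of its group at 0.03, lies among the TNFa and TSG6+HA values and above all 3 TSG-6 values. The changes were 0.58 ± 0.14, 0.49 ± 0.16 and 0.50 ± 0.14 (adjusted p = 0.00376, 0.0633 and 0.0176), so that Srebf2 rose after TNFa and TSG6+HA. Insig1, Insig2, Srebf1 and Scap passed after none of the 3. Insig1 had changes of 0.56 ± 0.30, 0.59 ± 0.33 and 0.67 ± 0.30. It passed after TNFa without the arrays of high 18S signal (0.59, limma adjusted p = 0.0154) and after TSG6+HA with the culture set as a block (0.67, limma adjusted p = 0.0309). It was -0.45 to 0.96 (median 0.07) on the 10 KO-labelled arrays of high 18S signal, against -0.99 to 0.027 (median -0.46) on the other 17. Insig2, the brake that was higher in untreated KO-labelled cultures, had -0.17 ± 0.19, -0.046 ± 0.21 and -0.13 ± 0.19.

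Stard4 lay at 0.29, 0.033, 0.022 and -0.026 after TNFa, 0.36, -0.15 and -0.41 after TSG-6 and 0.17, -0.44, 0.081 and -0.21 after TSG6+HA, against -2.34 to -0.24 in untreated KO-labelled cultures. All TNFa values lie above the untreated range, whereas KO-labelled TSG6 3 and TSG6+HA 2 fall inside it, and the changes were 1.20 ± 0.25, 1.05 ± 0.28 and 1.02 ± 0.25 (adjusted p = 0.000659, 0.0194 and 0.00565). The transporters Abca1 (-0.33 ± 0.45, -0.54 ± 0.50 and -0.37 ± 0.45) and Abcg1 (0.076 ± 0.15, -0.061 ± 0.17 and -0.18 ± 0.15) and the lysosomal Npc1 and Npc2 passed after none, these lysosomal genes with changes between -0.13 and 0.071.

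In fatty acid synthesis Scd2 lay at -0.37, -0.99, -1.11 and -1.20 after TNFa, 0.32, 0.012 and -0.72 after TSG-6 and 0.28, 0.14, 0.31 and -0.012 after TSG6+HA, against -2.37 to 0.045 in untreated KO-labelled cultures. The TNFa values fall inside the untreated range, and 3 of the 4 TSG6+HA values lie above it. The changes were 0.26 ± 0.24, 1.04 ± 0.27 and 1.35 ± 0.24 (adjusted p = 0.592, 0.0162 and 0.000209), so that Scd2 rose after TSG-6 and TSG6+HA, and it had the largest change of the set after TSG6+HA. Fasn rose after TSG6+HA (0.46 ± 0.14) and had 0.36 after TNFa and 0.40 after TSG-6 without passing. Scd1 and Acly passed after none.

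**Figure D4:**
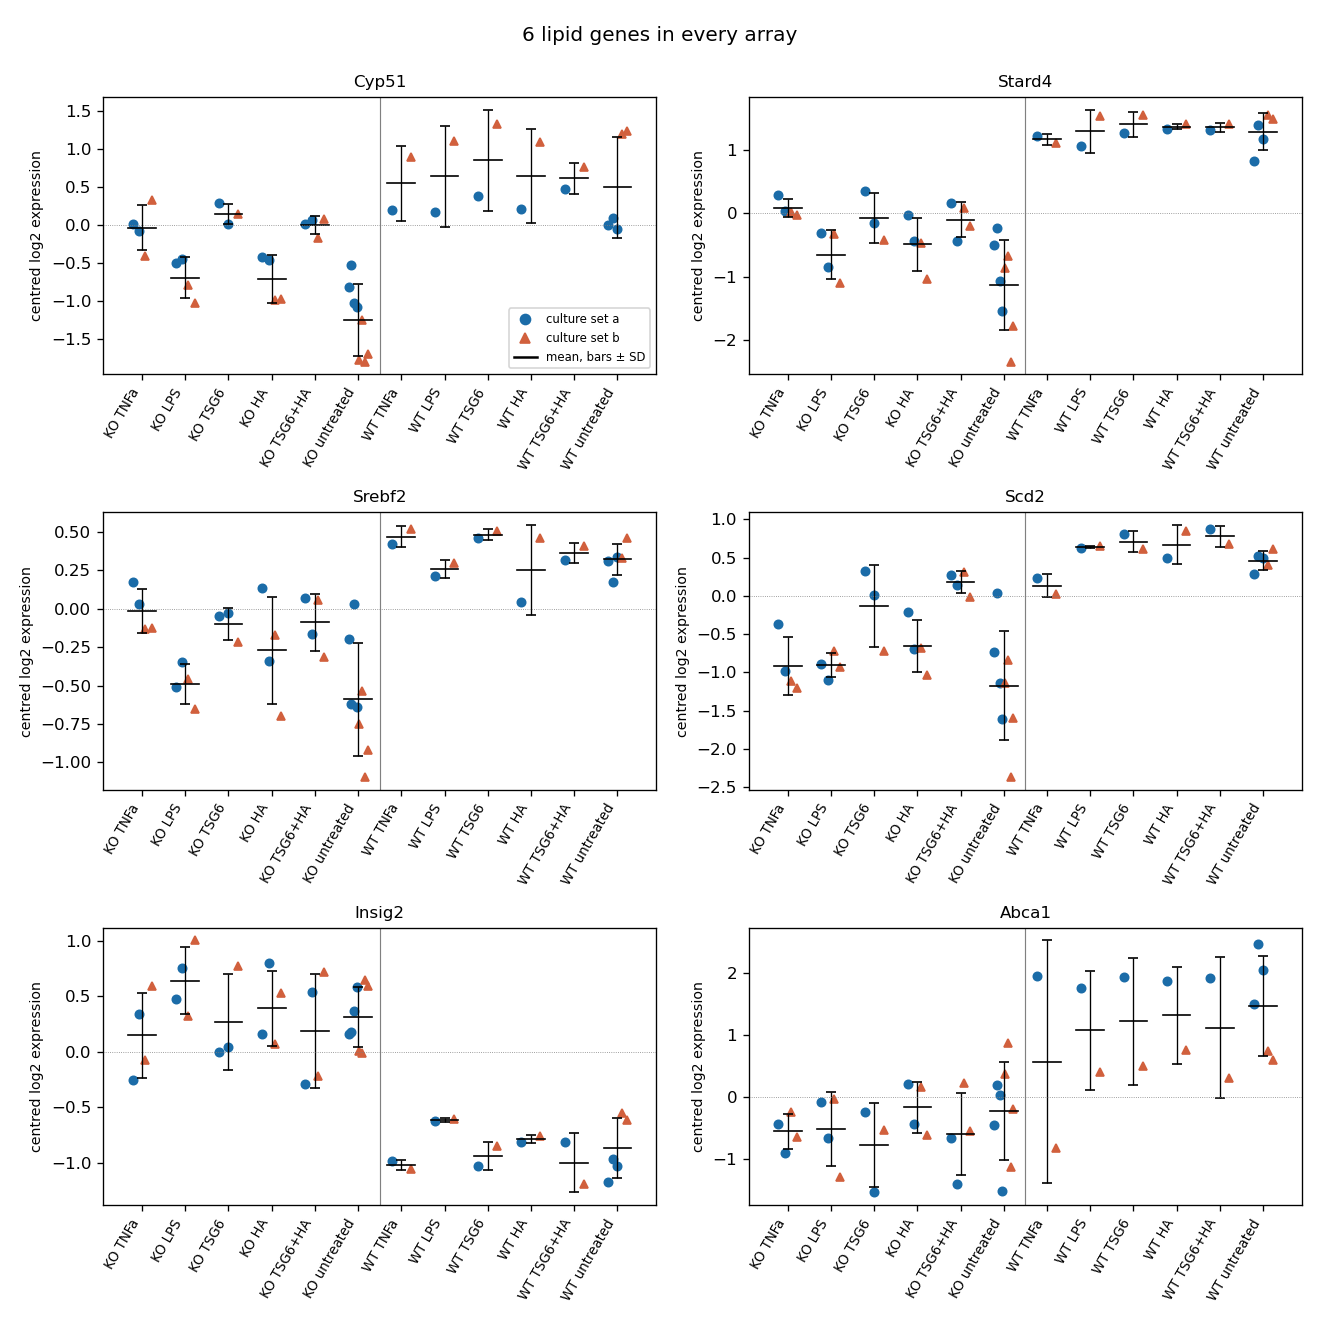
Centred log2 expression of Cyp51, Stard4, Srebf2, Scd2, Insig2 and Abca1 in every array of the 12 groups, with circles for culture set a, triangles for set b, and lines and bars for mean and SD. By group mean Cyp51, Stard4 and Srebf2 are highest among KO-labelled cultures after TNFa, TSG-6 and TSG6+HA and Scd2 after TSG-6 and TSG6+HA, every KO-labelled value of Insig2 lies above every WT value, and Abca1 divides by culture set in WT cultures.

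These counts depend on how the culture sets and the 18S signal are treated. With the culture set as a block 19, 19 and 20 genes rose after TNFa, TSG-6 and TSG6+HA, while the calls over all genes went up as well, to 3463, 1539 and 2648, against 2552, 864 and 1809 without the block. Set a alone gave 7, 8 and 9 genes and set b alone 13, 9 and 14, with 7, 7 and 8 called in both. Over all genes set a alone gave 1360, 600 and 949 calls and set b alone 1632, 183 and 791. Without the 15 arrays of high 18S signal 4, 3 and 6 genes rose, and the calls over all genes were 2060, 435 and 1080. The medians over the 31 genes were then 0.36, 0.48 and 0.46, against 0.40, 0.59 and 0.54 with them. Sqle was called after each treatment (0.85, 0.78 and 0.84), and after TNFa 3 of the 11 calls held, with Insig1 added. Leaving out single arrays, 8 of the 11 calls after TNFa held each time, 9 of the 15 after TSG6+HA and 3 of the 12 after TSG-6 (Sqle, Hmgcs1 and Cyp51). Without KO-labelled TSG6 1, or without TSG6 2, the count after TSG-6 was 3. Of the other probe sets of the called genes, 8 of 17 passed after TNFa, 11 of 22 after TSG-6 and 12 of 23 after TSG6+HA. That of Msmo1 (0.29 to 0.40) missed the threshold after all 3 treatments. The direction was opposite, below the threshold, for Fdps (-0.036) and Hsd17b7 (-0.13) after TNFa. It was so for Fdps (-0.01) and Fdft1 (-0.18) after TSG-6, and for 0 after TSG6+HA. The actin 3′ minus 5′ value was -0.13 to -0.009 after TSG-6 and -0.14 to -0.047 after TSG6+HA, against 0.009 to 0.73 in untreated KO-labelled cultures, and its part in the result was not tested. After TNFa it was -0.003 to 0.28. The endothelial and proliferation medians after each treatment overlap those of untreated KO-labelled cultures.

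Markers of cell types also moved with these treatments in KO-labelled cultures. Of the 11 fibroblast markers, Col1a2, Col3a1 and Prg4 rose after TSG-6, the same genes and Col1a1 rose after TSG6+HA, and Fap fell after TNFa. The fibroblast medians were 0.16 to 0.40 after TSG6+HA, against -0.23 to 0.15 in untreated KO-labelled cultures, without overlap, whereas those after TSG-6 (-0.029 to 0.42) and TNFa (-0.31 to 0.041) overlap. Of the 6 adipocyte markers, Pparg and Lpl fell after TNFa (-0.95 and -1.44) and after TSG6+HA (-0.61 and -1.22). Cd14 and Csf1r of the macrophage list and Flt1 of the endothelial list (1.23 ± 0.22, limma adjusted p = 8.31e-05) rose after TNFa, and Csf1r rose after TSG6+HA. Their part in the lipid gene changes was not tested.

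LPS and HA gave smaller values. After LPS 0 of 31 genes passed the limma test in KO-labelled cultures, where 1.79% of all genes passed. An unadjusted p below 0.05 was found for 4 of the 31 (Sqle 0.58, Cyp51 0.55, Fdps 0.49 and Msmo1 0.48) and for 1824 of all 18194 genes. All 17 enzymes had positive values, with a median of 0.28. After HA 0 passed, where 0.643% of all genes passed, and 10 had an unadjusted p below 0.05, as did 1256 of all 18194 genes. The median over the 31 genes was 0.25, 29 were positive, and the 10 genes included Stard4 (0.64 ± 0.25), Hsd17b7 (0.61 ± 0.23) and Sqle (0.54 ± 0.17). With the culture set as a block 5 genes rose after LPS (Fdps, Fdft1, Sqle, Cyp51 and Msmo1) and 6 after HA (Hmgcs1, Mvd, Fdps, Fdft1, Sqle and Msmo1). Calls over all genes went up as well, to 720 after LPS and 305 after HA, against 326 and 117 without the block. Both counts of the 31 genes thus depended on whether the sets were in the fit. Over arrays, Sqle lay at -0.22, -0.22, -0.42 and -0.52 after LPS and -0.017, -0.41, -0.52 and -0.58 after HA, against -1.35 to -0.56 in untreated KO-labelled cultures. All LPS values lie above the untreated range, and so do the HA values other than KO-labelled HA 4.

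TSG6+HA was also set against HA in KO-labelled cultures, a comparison without untreated arrays that shows what adding TSG-6 to HA changed. In it 0 of 31 genes passed the limma test, where 1.79% of all genes passed. An unadjusted p below 0.05 was found for 7 of the 31 and for 1923 of all 18194 genes. Scd2 lay at 0.28, 0.14, 0.31 and -0.012 after TSG6+HA, against -0.21, -0.70, -0.68 and -1.04 after HA. Those groups do not overlap, and the value of 0.83 ± 0.28 (SE, adjusted p = 0.154) had the smallest p of the set. Cyp51 had 0.71 ± 0.29 and Hmgcs1 0.47 ± 0.19. With the culture set as a block 5 genes rose (Hmgcs1, Fdps, Sqle, Lss and Cyp51), while 820 of all genes passed, against 325 without the block. Setting TSG6+HA against TSG-6, the effect of adding HA to TSG-6, gave 0 calls among the 31 genes, with values between -0.21 and 0.31. Of all genes 0% passed. An unadjusted p below 0.05 was found for 0 of the 31 and for 612 of all 18194 genes.

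In WT cultures 0 of 31 genes passed the limma test after any of the 5 treatments, where 2.56% of all genes passed after TNFa, 1.19% after LPS, 0.429% after TSG-6, 0.132% after HA and 0.802% after TSG6+HA. An unadjusted p below 0.05 was found for 1 gene after TNFa (Abcg1, 0.43), 1 after LPS (Hsd17b7, 0.77) and for 0 genes after TSG-6, HA and TSG6+HA. Over all 18194 genes it was found for 1731 after TNFa, 1128 after LPS, 721 after TSG-6, 744 after HA and 1585 after TSG6+HA. The medians over the 31 genes were 0.087, 0.12, 0.17, 0.14 and 0.16 after TNFa, LPS, TSG-6, HA and TSG6+HA. With the culture set as a block 0 passed after any treatment. With the replicate number as a block 3, 4, 5, 1 and 6 genes rose in the same order. The medians were then 0.28, 0.44, 0.40, 0.37 and 0.49. WT replicate 2 is set a when untreated and set b when treated, so that block compares cultures across sets. In the WT TSG-6 comparison 40.3% of simulated 1.5-fold changes and 89.55% of simulated 2-fold changes were recovered. These were planted in genes drawn at random, with noise independent between arrays and so without culture sets. The 0 calls thus do not show that WT cultures lacked a response. Sqle lay at 0.30 and 0.80 after TNFa, 0.52 and 1.06 after TSG-6 and 0.41 and 0.97 after TSG6+HA, against 0.12, 0.11, 0.17, 0.86 and 0.79 in untreated WT cultures. In each pair the higher value is the set b culture, as it is among the untreated cultures.

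The difference between the genotypes in a treatment response, tested as an interaction in limma, passed for 0 of 31 genes after each treatment. The unadjusted p was below 0.05 for 5 genes after TNFa, 3 after TSG-6, 7 after TSG6+HA and 0 after LPS and HA. Over all 18194 genes it was so for 1280 after TNFa, 736 after TSG-6, 1283 after TSG6+HA, 541 after LPS and 400 after HA. The share of all genes that passed the adjusted test was 0.808% after TNFa, 0.214% after LPS, 0.0824% after TSG-6, 0.044% after HA and 0.181% after TSG6+HA. Stard4 had the smallest adjusted p, with 1.32 ± 0.43 (SE, adjusted p = 0.202) after TNFa. Cyp51 had 1.15 ± 0.43 after TNFa, 1.03 ± 0.45 after TSG-6 and 1.12 ± 0.43 after TSG6+HA. With the culture set as a block the response was larger in KO-labelled cultures for 6 genes after TNFa (Mvd, Fdps, Fdft1, Sqle, Cyp51 and Msmo1), 2 after TSG-6 (Fdps and Sqle) and 5 after TSG6+HA (Hmgcs1, Fdps, Sqle, Cyp51 and Msmo1). Over all genes 404, 87 and 211 passed with that block after TNFa, TSG-6 and TSG6+HA, against 147, 15 and 33 without it. With set b alone 3 of the 31 genes passed after TNFa and 3 after TSG6+HA, where 147 and 123 of all genes did. With set a alone 0 of the 31 passed, where 24 and 7 of all genes did after TNFa and TSG6+HA. With the replicate number as a block 0 genes passed after any treatment. The medians over the 31 genes were then -0.098 after TNFa, -0.079 after TSG-6 and -0.086 after TSG6+HA, against 0.36, 0.36 and 0.28 without a block. After LPS and HA they were -0.28 and -0.23, against 0.089 and 0.12. With the culture set as a block they were 0.42, 0.42 and 0.35 after TNFa, TSG-6 and TSG6+HA, and 0.11 and 0.17 after LPS and HA. The medians were thus negative with the replicate block, and positive with the culture set block and without a block. The replicate block joins cultures of different sets, such as WT untreated 2 (set a) with treated WT 2 (set b). In those pairs treatment and culture set cannot be told apart.

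Other genes of the pathways, listed apart from the set, passed the test in both directions. Over all genes 14% passed after TNFa, 4.75% after TSG-6, 9.94% after TSG6+HA, 1.79% after LPS and 0.643% after HA. Of 18 other genes of fatty acid and lipid synthesis, 6 passed the test after TNFa in KO-labelled cultures (1 higher) and 3 after TSG-6 (1 higher). After TSG6+HA 4 passed (1 higher), after LPS 2 (both lower) and after HA 0 in limma. After HA 2 of the 18 had an unadjusted p below 0.05, as did 1256 of all genes. Thrsp, a nuclear protein tied to lipogenesis, fell by 0.65 ± 0.13 after TNFa, 0.62 ± 0.14 after TSG-6, 0.72 ± 0.13 after TSG6+HA and 0.58 ± 0.13 after LPS, and Lpin1, a phosphatidate phosphatase, fell by 0.61, 0.46, 0.46 and 0.43 after the same treatments. Fads1, a desaturase of long fatty acids, fell by 0.49 after TNFa, and Acacb, an acetyl-CoA carboxylase, by 0.61 after TSG6+HA. Hsd17b12, a reductase of fatty acid elongation, rose by 0.70 after TSG-6.

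Of 18 other genes of sterol regulation and handling, 8 passed after TNFa (6 higher), 5 after TSG-6 (3 higher), 7 after TSG6+HA (4 higher), 2 after LPS (1 higher) and 1 after HA. Ch25h, which makes a hydroxylated cholesterol that holds SREBP back, rose by 1.70 ± 0.26 after TNFa. Cyp7b1, an oxysterol hydroxylase, rose by 1.43 after TNFa, 1.25 after LPS and 1.05 after HA, and it also passed after TSG-6 (0.91) and TSG6+HA (1.01). Cyp27a1, another sterol hydroxylase, fell by 0.80 after TNFa, 0.71 after TSG-6, 0.98 after TSG6+HA and 0.56 after LPS. Tmem97, a sterol-responsive membrane protein, rose by 1.16 ± 0.20 after TSG-6 and 1.13 ± 0.18 after TSG6+HA, and it also passed in TSG6+HA against HA (0.76 ± 0.21). In that comparison 2 of the 18 genes passed, the other being Cyp27a1 (-0.65), beside Thrsp (-0.54) from the fatty acid list. Rnf139, a ubiquitin ligase of the endoplasmic reticulum, fell by 0.41 after TSG-6 and 0.53 after TSG6+HA.

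In WT cultures Ch25h rose by 2.76 ± 0.36 after TNFa, where Mylip, a ubiquitin ligase of lipoprotein receptors, fell by 0.77 and Thrsp by 0.87, and Cyp7b1 rose by 1.45 ± 0.28 after LPS. Between untreated cultures 12 of the 18 sterol handling genes passed, 8 of them higher in KO-labelled cultures, where 37.6% of all genes passed and 21.3% were higher. They include Pltp, the phospholipid transfer protein (2.22 ± 0.16), Cyp27a1 (1.43 ± 0.12) and, lower, Lbr, the lamin B receptor with sterol reductase activity (-1.29 ± 0.087). Of the 18 fatty acid and lipid genes 7 passed, a share close to the 37.6% of all genes, with Elovl5, an elongase (-0.43), and Fads2, a desaturase (-0.82), lower and Lpin1 higher (0.65). Of the 31 genes of the set, Npc1 and Tm7sf2 passed in none of the 18 comparisons.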

How the data were processed

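The deposited table held 1 value for each of 45101 probe sets on 42 Affymetrix arrays. The authors made these log2 values with RMA, per the submitters' processing notes, which give no version. Each probe set was found centred on its median over all arrays. Log base 2 was inferred from the values, whose largest range within a probe set is 9.81. Microarrays carry no count depth, so the number of arrays limits the precision.

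Probe sets naming 1 gene (34958) were kept, 932 naming several and 9211 naming none were left out, and 34754 were matched to current symbols by gene number. Of several probe sets the one of largest SD was used among those whose correlation with the 18S ribosomal RNA probe set was at most 0.7, which left 18194 genes. 387 probe sets exceeded that correlation, and 67 genes had only such probe sets. Choosing by SD favours probe sets that vary.

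Means for the 12 groups were fitted over all 42 arrays with limma 3.58.1 (R 4.3.3), with 30 residual degrees of freedom and Benjamini-Hochberg adjustment within each of 18 comparisons. The fit was tested on simulated data. Tables and figures used Python 3.11.15 with pandas 2.3.3, numpy 2.4.6 and matplotlib 3.10.9.

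The members and all lists were chosen with earlier results of these data known. Array values are given for members called in most comparisons, for the best member of each role, and up to 6 members of smallest adjusted p per comparison are named, with 3 genes from each list of other pathway genes. Other genes named were chosen after their values were seen. The alternatives were a block for the replicate number, leaving out each array, only the groups compared, the mean of a gene's probe sets, a filter on the less variable genes, cyclic loess, a block for the culture set, leaving out the arrays of high 18S signal and, chosen after seeing the data, single culture sets. Culture sets were read from probe sets with a gap of over 1 log2 unit inside every group.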

Additional observations from a re-analysis of the deposited data

Results flagged for a closer look

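Among 84 groups of 4 to 10 arrays examined gene by gene for a single array far from the rest, 1 stood out, where chance gives about 1 in 20. In KO-labelled HA cultures Nsdhl, the sterol dehydrogenase, was at -0.052 in array 1 and at -0.27 to -0.24 in the other 3, and the gap took 0.8804 of the whole range. That array was not among those of high 18S signal.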

How the results depend on the processing

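Counts are of the 31 genes past an adjusted limma p of 0.05, against 11, 12 and 15 in KO-labelled cultures after TNFa, TSG-6 and TSG6+HA, 29 between untreated KO-labelled and WT cultures, and 0 in every other comparison. Leaving out each array in turn gave 8 to 12 after TNFa, 3 to 14 after TSG-6, 10 to 16 after TSG6+HA and 26 to 30 between genotypes, and 0 to 0 elsewhere. The lowest came without KO-labelled TNFa 1, without TSG6 1 or TSG6 2, without TSG6+HA 1 and without WT untreated 5. With the mean of a gene's probe sets 1 gene passed in the TNFa response difference and 1 in TSG6+HA against HA.

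Other settings moved the counts as follows. Without the arrays of high 18S signal the counts after TNFa, TSG-6 and TSG6+HA were 4, 3 and 6. With the culture set as a block they were 19, 19 and 20, with 5 after LPS, 6 after HA and 5 in TSG6+HA against HA. In the response differences to TNFa, TSG-6 and TSG6+HA they were 6, 2 and 5. Calls over all genes also went up with that block in each of these comparisons. In fits of 1 culture set at a time, chosen after seeing the data, set a alone gave 7 genes after TNFa and 9 after TSG6+HA, and set b alone gave 3 after LPS, 1 after HA, 3 in the TNFa and 3 in the TSG6+HA response difference. The cause was not tested.

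Replicate numbers join cultures of different sets in both genotypes, such as WT 2 and KO-labelled 3 and 4, untreated in set a and treated in set b. Whether they pair cultures within a set was not settled, and the main fit does not use them. Across culture sets, same-numbered arrays correlated between -0.26 and 0.22 in KO-labelled cultures and between -0.65 and -0.48 in WT cultures. Within a culture set, same-numbered KO-labelled arrays correlated between -0.14 and 0.72. Within a set the median was 0.45 for the same number and 0.039 for other numbers in KO-labelled arrays, and 0.52 for both in WT arrays, and 24 of 35 arrays correlated best with their own number. With the replicate block the counts were 11, 11 and 13 after TNFa, TSG-6 and TSG6+HA, 6 in TSG6+HA against HA and 30 between genotypes. Calls over all genes were higher too in each comparison named here. In WT cultures the replicate block gave 3 genes after TNFa, 4 after LPS, 5 after TSG-6, 1 after HA and 6 after TSG6+HA. It turned the median over the 31 genes of the response difference negative, at -0.098 for TNFa, -0.079 for TSG-6 and -0.086 for TSG6+HA, against 0.36, 0.36 and 0.28, with 0 calls either way in limma and 1, 2 and 2 genes at an unadjusted p below 0.05, against 5, 3 and 7. After cyclic loess Pmvk reversed between genotypes, at 0.036 against -0.59, and its cause was not tested.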
